A study of Mus musculus and Homo sapiens with 41 samples.

Results

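The mitosis and G2/M genes are a list of 36 genes whose proteins carry a cell from the end of G2 through mitosis to the separation of daughter cells. The list was chosen from earlier results of these same libraries together with textbook function, so the direction of its members between the groups is given as a description and not as a test. The list used names only and no threshold on any value. All 36 genes were found on 1 row each among the 53756 genes of the granulocyte-monocyte progenitor (GMP) table and among the 13238 genes of the 416b table. The GMPs were Lineage negative, c-Kit+, Sca-1-, Cd34+ and FcγR+ bone marrow cells of the strain C57BL/6. They were sorted from lethally irradiated Cd45-1 recipients that had been reconstituted with total bone marrow of WT or of Zbtb16lu/lu mice, which carry the luxoid mutation in the gene for the transcription factor PLZF. Both groups had therefore gone through transplantation and regrowth in an irradiated host, and the gate for Cd45+ cells is the step that bears on host cells. The cytometry antibodies of the study included one against Cd45-2, the donor form, which the hosts lack, and the share of host cells left after sorting was not given. The GMP table held 2 libraries of each genotype, filed under 1 sample per genotype, and the age and sex of the mice and the animals behind each library were not given. The 416b cells are a Cd34+ murine myeloid line, transduced with a lentivirus carrying PLZF-Flag and GFP or with the Empty vector and sorted for GFP, with 1 library per condition.

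A cell enters mitosis when cyclin B and Cdk1 form an active kinase, and it leaves mitosis when the anaphase-promoting complex (APC/C) marks cyclin B for destruction. Most genes of the program are transcribed late in the cycle, and their promoters are known for a short element, the cell cycle homology region (CHR), that is bound by the MuvB complex. MuvB represses these genes in resting cells as part of the DREAM complex and activates them in G2 with B-Myb and FoxM1, and NF-Y at CCAAT boxes provides the activity of many of these promoters. In bone marrow, GMPs are rapidly dividing progenitors, and the summed RNA of the program in a bulk sample depends both on how many cells are in G2 or mitosis and on the RNA in each cell. Fewer cells in these phases and less RNA per cell cannot be told apart in these data.

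Values are read counts per gene divided by a size factor of the library (normalized counts). The GMP libraries held 37562999 to 40170636 recovered reads on the listed genes, the Empty vector library 54529900 and the PLZF-Flag library 19995671. For Zbtb16 itself the WT libraries had 828 and 705 normalized counts and the Zbtb16lu/lu libraries 269 and 369, so that the genotypes did not overlap (log2 fold change -1.28, SE 0.20, limma adjusted p = 0.299, DESeq2 adjusted p = 4.93e-05). In 416b cells its level was 382 normalized counts with the Empty vector against 2541 with PLZF-Flag. The defining GMP genes Mpo, Elane, Prtn3 and Ctsg, which encode granule proteins, were abundant in every GMP library, and the lowest of these values was 36604 normalized counts for Elane in WT library 1.

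All 36 genes had a lower mean in Zbtb16lu/lu than in WT GMPs, where 50.9% of the 20531 genes tested did. The log2 fold changes of the members ran from -0.48 for Hmmr to -0.08 for Ccnb2 with a median of -0.26, and the median of all genes tested was -0.0063. A fold of at least 1.2 in this direction was reached by 18 members, and the share of all genes tested past this fold was not determined. Both Zbtb16lu/lu libraries lay below both WT libraries for 28 of the 36 genes, and 22.1% of all genes tested had this order. The reverse order was found for 0 members. The 8 members whose genotypes overlapped were Ccnb2, Plk1, Aurkb, Nusap1, Ckap2, Kif23, Smc4 and Mki67. An adjusted p under 0.08 was reached by 0 members and by 0 of all genes in limma (0.0%) and likewise by 0 in edgeR (0.0%). In DESeq2 it was reached by 1 member, Hmmr (adjusted p = 0.0719), among 58 lower genes or 0.282% of those tested. At an unadjusted p under 0.05 there were 898 lower and 1130 higher genes in limma, and 2033 genes in edgeR and 1704 in DESeq2 in either direction. Of the members, 12 were lower and 0 higher in limma, where the lower genes were 4.37% of all genes tested. The same count for the members was 12 in edgeR and 15 in DESeq2. Without WT library 1, 35 members were lower with a median of -0.19 and 4 passed the limma threshold, and without WT library 2 all 36 were lower with a median of -0.36 and 23 passed. In these fits of 3 libraries the spread rests on the Zbtb16lu/lu pair, and 2760 and 4645 of all genes passed. Each of these counts comes from the contrast that was known when the list was made.

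The members together took 0.780% and 0.651% of all normalized counts in the WT libraries, and 0.583% and 0.608% in the Zbtb16lu/lu libraries. The sums were 300904 and 260224 normalized counts in WT against 233895 and 234883 in Zbtb16lu/lu. The Zbtb16lu/lu sums lay close together and below both WT sums, and the WT sums differed from each other by more than the lower of them exceeded the Zbtb16lu/lu sums. With 2 libraries per genotype, an exact two-sided permutation test of such a sum cannot give a p below 0.333.

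**Figure D1:**
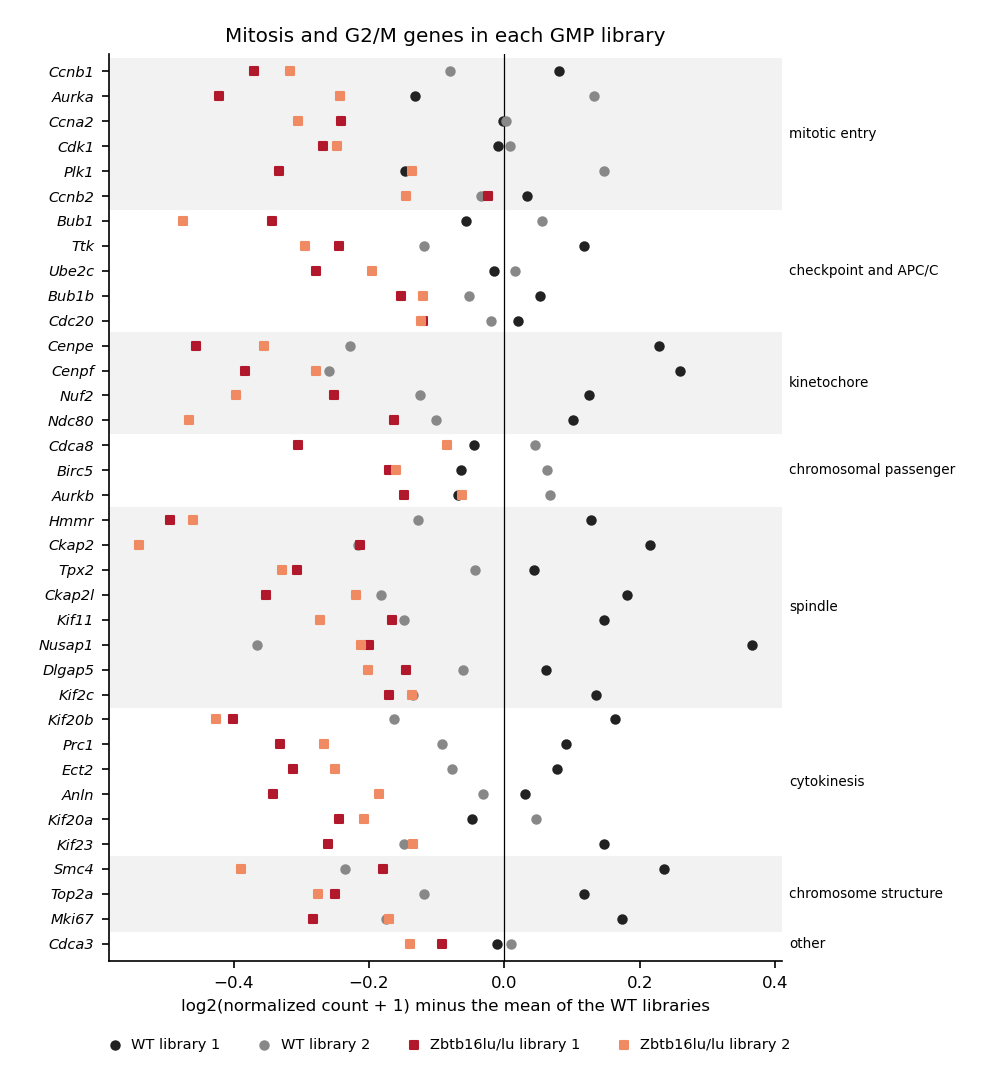
Each row is 1 of the 36 mitosis and G2/M genes, grouped by role, and each point is 1 GMP library. The horizontal axis gives log2(normalized count + 1) minus the mean of the 2 WT libraries, circles are WT and squares are Zbtb16lu/lu. The squares lie left of both circles for 28 genes, and WT library 1 lies right of WT library 2 for 25 genes.

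The promoters of the members were searched for the CHR and the CCAAT box, for which this class of genes is known. The shares therefore describe the class of genes and do not bear on the difference between genotypes. RefSeq windows of 250 bases before to 50 bases after the transcription start (GRCm38.p6, the assembly of mm10) were held for 30 of the 36 genes, with 32 windows in all. None was held for Aurkb, Ccna2, Dlgap5, Kif20a, Smc4 or Tpx2. The CHR was searched on both strands as TTTGAA or TTCGAA, the second of which reads the same on either strand, and the CCAAT box as CCAAT on both strands. Neither motif contains the other. A CHR match was present in 27 of the 32 member windows (84.4%), against 19.2% of all 32851 windows. Between 60 bases before and 50 bases after the start, 75.0% of member windows and 5.90% of all windows held one. A CCAAT match was present in 78.1% of member windows and 37.4% of all windows, and both motifs in 71.9% against 7.52%. Among related lists the shares differed. In the windows of other G2/M genes the shares were 64.5% for the CHR, 77.4% for CCAAT and 54.8% for both, and in those of S phase genes 17.1%, 65.7% and 11.4%. Windows of other kinetochore genes had 42.4%, 66.7% and 33.3%, those of condensin and cohesin genes 52.9%, 52.9% and 29.4%, and those of APC/C genes 21.1%, 42.1% and 5.26%. The windows of 5 genes, Birc5, Ccnb1, Cenpe, Nuf2 and Nusap1, had no CHR match. Their median log2 fold change in GMPs was -0.32, and that of the 25 genes with a match was -0.26, which is a description only, since the whole list was lower in this contrast.

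The stretches shown are those of Hmmr and Bub1, among the 3 members with the largest difference in GMPs, of the kinase Cdk1 and its B-type cyclins, of the APC/C activator Cdc20 and of the most abundant member, Top2a. Each runs 5′ to 3′ on the strand of the gene from 100 bases before the start, and capitals mark CHR and CCAAT matches on either strand.
Hmmr: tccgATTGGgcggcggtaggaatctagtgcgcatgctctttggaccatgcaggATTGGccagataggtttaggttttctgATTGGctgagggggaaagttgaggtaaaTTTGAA
Bub1: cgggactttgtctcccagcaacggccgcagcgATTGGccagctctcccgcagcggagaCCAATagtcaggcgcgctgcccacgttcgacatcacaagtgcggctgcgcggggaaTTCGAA
Cdk1: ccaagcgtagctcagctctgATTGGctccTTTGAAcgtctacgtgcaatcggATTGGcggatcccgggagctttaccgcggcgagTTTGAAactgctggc
Ccnb1: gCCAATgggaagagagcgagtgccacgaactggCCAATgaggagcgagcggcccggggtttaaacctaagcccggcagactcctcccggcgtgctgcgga
Ccnb2: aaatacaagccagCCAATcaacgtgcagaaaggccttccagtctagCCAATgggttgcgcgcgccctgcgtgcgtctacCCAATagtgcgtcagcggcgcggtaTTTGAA
Cdc20: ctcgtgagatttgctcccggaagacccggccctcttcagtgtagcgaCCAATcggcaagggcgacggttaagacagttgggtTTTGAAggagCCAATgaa
Top2a: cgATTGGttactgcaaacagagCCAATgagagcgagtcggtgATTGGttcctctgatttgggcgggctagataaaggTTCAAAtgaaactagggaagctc

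In the order printed, the stretches lie at chr11:40733424-40733537, chr2:127831840-127831959, chr10:69352913-69353012, chr13:100786487-100786586, chr9:70421545-70421654, chr4:118437344-118437443 and chr11:99024190-99024289, all on the minus strand of GRCm38.p6. In Hmmr, Bub1 and Ccnb2 the CHR match began 9, 15 and 5 bases after the start, below 3, 2 and 3 CCAAT matches. In Cdk1 there was a CHR match at each of the positions -71 and -15, and 2 CCAAT matches. Cdc20 and Top2a had a CHR match at -18 and -23. Ccnb1 had 2 CCAAT matches and no CHR match.

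**Figure D2:**
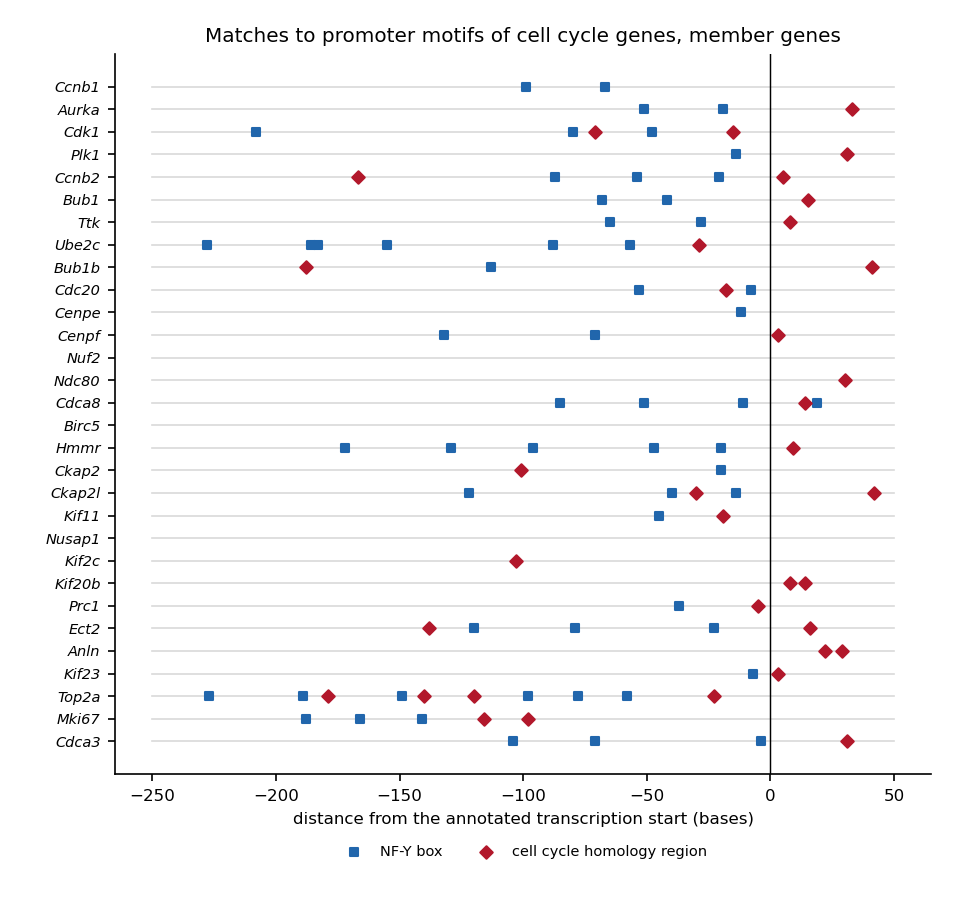
Positions of motif matches in the promoter windows of 30 member genes, as the distance in bases from the annotated transcription start, with 1 window drawn per gene. Squares are CCAAT boxes, the binding motif of NF-Y, and diamonds are cell cycle homology regions. Most diamonds lie within 60 bases before or 50 bases after the start. In many rows they lie downstream of the squares, but rows such as Cdc20, Cdca8 and Ckap2l have a diamond upstream of a square. The rows of Anln, Kif20b, Kif2c and Ndc80 hold no square, and those of Birc5, Nuf2 and Nusap1 hold neither motif.

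The regulators of mitotic entry (6 members) had a median log2 fold change of -0.27 in GMPs. Ccnb1, one of the B-type cyclins that activate Cdk1, had 2714 and 2426 normalized counts in the WT libraries against 1985 and 2060 in the Zbtb16lu/lu libraries (log2 fold change -0.34, SE 0.12, limma, adjusted p = 0.465). The genotypes did not overlap, and the 2 libraries of a genotype lay closer to each other than to the other genotype. Cdk1, the kinase itself, had 7980 and 8080 in WT against 6668 and 6768 in Zbtb16lu/lu (-0.26, SE 0.11). Its libraries agreed within each genotype to 0.02 on the log2 scale. Ccna2, the A-type cyclin of S and G2 phase, had 11065 and 11105 against 9380 and 8973 (-0.27, SE 0.11). Both Zbtb16lu/lu values lay below both WT values. Aurka, the kinase of the spindle poles, had 3402 and 4087 against 2783 and 3150 (-0.33, SE 0.14). Plk1, the polo-like kinase, had 2003 and 2456 against 1760 and 2018, and its genotypes overlapped. Ccnb2, the second B-type cyclin, was the member with the smallest difference, at 4353 and 4152 in WT against 4182 and 3842 in Zbtb16lu/lu (-0.08, SE 0.11). With offsets for exon length and GC content in each library (an alternative fit) Nusap1 (-0.09) was nearer to 0 than Ccnb2 (-0.12). The genotypes of Ccnb2 overlapped, and those of Ccnb1 and of Cdk1, their shared kinase, did not.

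Members of the spindle assembly checkpoint and the APC/C (5 members) had a median of -0.24 (-0.15 without WT library 1), and the genotypes did not overlap for any of the 5. Bub1, a checkpoint kinase at kinetochores, had 4601 and 4974 normalized counts in WT against 3770 and 3443 in Zbtb16lu/lu (log2 fold change -0.41, SE 0.12, limma, unadjusted p = 0.0072, adjusted p = 0.422). Unlike most members it was lower in WT library 1 than in WT library 2. Ttk, the checkpoint kinase Mps1, had 2786 and 2366 against 2168 and 2092 (-0.27, SE 0.13). Ube2c, the ubiquitin-conjugating enzyme of the APC/C, had 2165 and 2213 against 1805 and 1912 (-0.24, SE 0.12). Bub1b, another checkpoint gene, stood at -0.14. Cdc20, the APC/C activator, stood at -0.12, with libraries at 5315 and 5172 in WT and at 4823 and 4812 in Zbtb16lu/lu. The order within this role turned with the offsets, under which Ube2c (-0.41) and Cdc20 (-0.29) were lower than Bub1 (-0.28), Bub1b (-0.19) and Ttk (-0.17).

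The kinetochore members had a median of -0.33 over 4 genes, which was -0.21 with the offsets, -0.19 without WT library 1 and -0.52 without WT library 2, and none of the 4 overlapped between genotypes. Cenpe, the kinesin that aligns chromosomes, had 8097 and 5899 normalized counts in WT against 5039 and 5400 in Zbtb16lu/lu (log2 fold change -0.41, SE 0.16, limma, adjusted p = 0.470). WT library 1 stood apart from the other 3 libraries, and without it Cenpe stood at -0.18 and Cenpf at -0.07. Cenpf, a large kinetochore protein, showed the same arrangement with 7124 and 4972 in WT against 4563 and 4906 in Zbtb16lu/lu, and WT library 2 lay above the higher Zbtb16lu/lu library by 0.02 on the log2 scale. Nuf2 (-0.32) and Ndc80 (-0.31), subunits of the complex that holds microtubules, differed by similar amounts, and Nuf2 stood at -0.20 without WT library 1 and Ndc80 at -0.16 without Zbtb16lu/lu library 2. The chromosomal passenger complex, which corrects faulty attachments, had a median of -0.16 (-0.20 with the offsets, -0.10 without WT library 2 and -0.08 without Zbtb16lu/lu library 1) over Cdca8 (-0.19), Birc5 (-0.16) and its kinase Aurkb (-0.11). Birc5 had 2973 and 3248 in WT against 2762 and 2782 in Zbtb16lu/lu.

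Of the 8 spindle members, Hmmr had the largest difference of the whole list with all libraries and no offsets. Without WT library 1 it stood at -0.35, nearer to 0 than Bub1 (-0.47), Aurka (-0.46) and Plk1 (-0.38). Hmmr encodes a microtubule-associated protein of the spindle that is also known as a hyaluronan receptor, and its gene lies at chr11:40701388-40733464. It had 6019 and 5044 normalized counts in WT against 3911 and 4005 in Zbtb16lu/lu (log2 fold change -0.48, SE 0.12, a change of -28.2%, limma, unadjusted p = 0.0045, adjusted p = 0.378). The 2 Zbtb16lu/lu libraries nearly coincided and lay below both WT libraries. Tpx2, which activates Aurora A on the spindle, had 9520 and 8962 against 7472 and 7356 (-0.32, SE 0.11), again without overlap. Ckap2 (-0.38), Ckap2l (-0.29), Kif11 (-0.22), Dlgap5 (-0.17) and Kif2c (-0.15), which build spindle poles and move or take apart microtubules, completed the range of this role together with Nusap1. With WT library 1 left out these 5 stood at -0.16, -0.10, -0.07, -0.11 and -0.02. Nusap1, a protein that bundles spindle microtubules, had 6601 and 3978 in WT against 4462 and 4423 in Zbtb16lu/lu (-0.21, SE 0.21). Its WT libraries lay on either side of both Zbtb16lu/lu libraries, and without WT library 1 its value was 0.16.

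The cytokinesis members (6 genes) had a median of -0.27. Kif20b, a kinesin of the midbody, had 6248 and 4981 normalized counts in WT against 4226 and 4150 in Zbtb16lu/lu (log2 fold change -0.41, SE 0.13, limma, adjusted p = 0.428, -0.25 without WT library 1 and also with the offsets). Prc1, which crosslinks the central spindle, had 6207 and 5466 against 4628 and 4842 (-0.30, SE 0.12). Ect2, the exchange factor that activates RhoA at the cleavage plane, had 4740 and 4259 against 3620 and 3776 (-0.28, SE 0.12). The genotypes did not overlap for these genes, nor for the scaffold gene Anln (-0.26) or the kinesin gene Kif20a (-0.23). For the kinesin gene Kif23 (-0.20) WT library 2 and Zbtb16lu/lu library 2 lay at 3661 and 3694. The members that shape mitotic chromosomes were the most abundant of the list. Top2a, the topoisomerase that untangles sister chromatids, had 56490 and 47946 in WT against 43777 and 43001 in Zbtb16lu/lu (-0.26, SE 0.13), and stood at -0.14 without WT library 1, -0.16 with the offsets and -0.40 with quantile normalization. Mki67, which coats mitotic chromosomes and is the usual marker of dividing cells, had 48565 and 38121 against 35384 and 38216 (-0.23, SE 0.14), and stood at -0.05 without WT library 1. Smc4, a condensin subunit, had 20982 and 15134 against 15732 and 13610 (-0.28, SE 0.16), and stood at -0.05 without WT library 1. The genotypes overlapped for Mki67 and Smc4 and not for Top2a. Cdca3, which acts in the removal of the mitosis inhibitor Wee1, differed by -0.12.

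Part of the spread lay between the WT libraries. WT library 1 exceeded WT library 2 for 25 of the 36 members, by a median of 0.16 on the log2 scale, and the 2 Zbtb16lu/lu libraries differed by a median of -0.03. The difference between genotypes was larger than that between the WT libraries for 24 members. Leaving out WT library 1 moved 17 members nearer to 0 by over 1.5 times, among them those named above and Kif23 (-0.05), Bub1b (-0.08), Ccnb2 (-0.05) and Ttk (-0.15), and Aurkb (-0.17) and Plk1 (-0.38) moved farther from 0 by over 1.5 times. Without WT library 2, 10 moved farther from 0 by as much, from -0.29 for Kif2c to -0.63 for Cenpe, and Aurka (-0.20), Birc5 (-0.10), Plk1 (-0.09) and Aurkb (-0.04) moved nearer. Leaving out Zbtb16lu/lu library 1 or 2 moved 4 and 5 members by over 1.5 times, and quantile normalization 5. The names of WT library 2 and Zbtb16lu/lu library 2 carried the same number, whose meaning was not given. Between this pair of libraries the members differed by a median of -0.17 and 33 of 36 were lower in Zbtb16lu/lu, and between the other pair by -0.33 with 36 of 36 lower. Crossing the pairs gave -0.19 with 32 lower and -0.34 with 34 lower. The medians of all 4 comparisons of single libraries thus had the same direction, and their size differed more between the WT libraries than between the Zbtb16lu/lu libraries.

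The members had longer exons than the genes tested, with a median of 4798 against 2930 bases, and a lower GC content, 46.1% against 49.3%. Across the 36 genes the difference between the WT libraries followed GC content (Pearson r -0.64, Spearman rho -0.63), and so did the log2 fold change between genotypes (r 0.64, rho 0.65). These are descriptions across genes of the same 4 libraries. With offsets for exon length and GC content in each library, an alternative chosen after seeing the data, all 36 members were still lower in Zbtb16lu/lu. The median was then -0.20, where that of all genes tested was -0.04. Under these offsets Hmmr stood at -0.36 and Bub1 at -0.28, and Plk1 (-0.42), Aurka (-0.41) and Ube2c (-0.41) had the most negative values. The offsets moved 10 members nearer to 0 by over 1.5 times, among them Ect2 (-0.14), Smc4 (-0.14), Kif11 (-0.10) and Nusap1 (-0.09). They moved 5 farther from 0 by as much, which were Ube2c, Plk1, Cdc20 (-0.29), Aurkb (-0.20) and Cdca3 (-0.18).

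Other cell cycle genes were described from lists of related machinery, each without the members. Of 36 other G2/M genes, 24 had a lower mean in Zbtb16lu/lu GMPs and the median was -0.10. Of 34 other kinetochore genes 26 were lower (median -0.10), of 17 condensin and cohesin genes 12 (-0.09), and of 17 APC/C genes 12 (-0.04). Several of these medians moved with 1 library or the offsets. Without WT library 1 that of condensin and cohesin was -0.01 with 9 lower and 8 higher, and without WT library 2 -0.24, while without Zbtb16lu/lu library 1 it was -0.16. Other kinetochore genes had -0.04 without WT library 1, -0.17 without WT library 2 and -0.05 with the offsets. Other G2/M genes had -0.05 without WT library 1. The APC/C median ran from -0.02 to -0.09 as libraries were left out and was -0.07 with the offsets. None of the 104 genes of these 4 lists passed the limma, edgeR or DESeq2 test. At an unadjusted p under 0.05 in limma 8 of the 104 were lower and 3 higher. Of the 20531 genes tested, 898 were lower and 1130 higher at this level. Among those with the lowest values were Spc25 (-0.43) and Knl1 (-0.41) of the kinetochore, the condensin subunit gene Ncapg (-0.38) and the kinesin gene Kif14 (-0.33). The centromere gene Cenpm (0.60), Pimreg (0.41) and Pkmyt1 (0.39), which encodes the kinase that holds Cdk1 inactive, had the highest. With the offsets Knl1 stood at -0.22, Ncapg at -0.15, Pimreg at 0.24 and Pkmyt1 at 0.17. Without WT library 1 Spc25 stood at -0.24, Knl1 at -0.16, Ncapg at -0.23 and Cenpm at 0.37, and without WT library 2 Knl1 at -0.65 and Pimreg at 0.21. The 42 S phase genes were divided, 20 lower and 22 higher, and 15 lower with quantile normalization, with a median of 0.01 that was -0.01 without WT library 1, 0.04 without WT library 2, -0.03 without Zbtb16lu/lu library 1 and 0.05 without Zbtb16lu/lu library 2. Of them Cdt1, which licenses replication origins, had 3093 and 3783 normalized counts in WT against 5123 and 4743 in Zbtb16lu/lu (log2 fold change 0.53, SE 0.13, DESeq2 adjusted p = 0.0454, limma adjusted p = 0.370, 0.29 with the offsets).

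**Figure D3:**
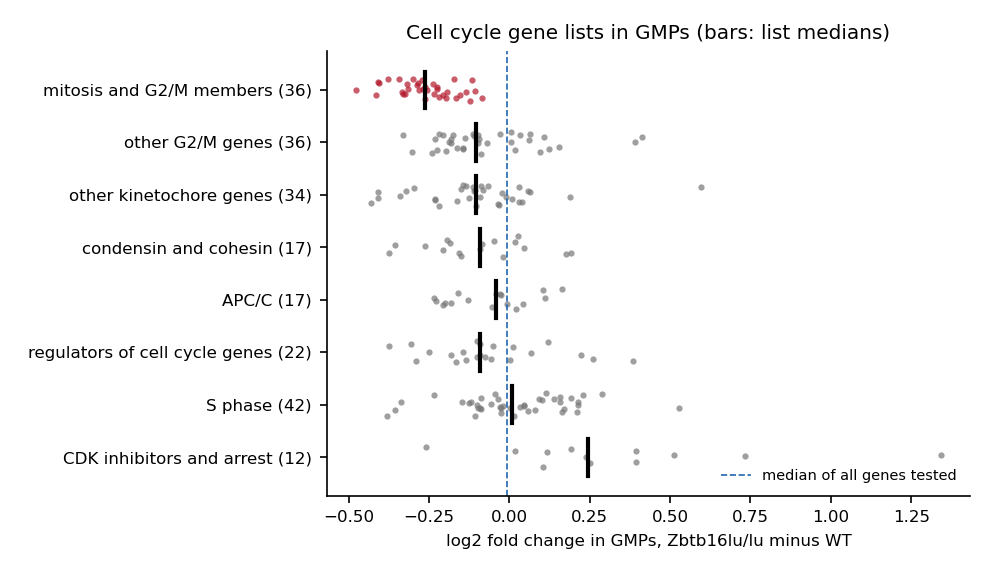
Log2 fold change in GMPs, Zbtb16lu/lu minus WT, of each tested gene of 8 cell cycle lists (points, with the number of genes in brackets and vertical scatter for visibility only), the list medians (black bars) and the median of all genes tested (dashed line). All 36 members lie left of 0 with a median of -0.26, the other mitotic lists have medians of -0.04 to -0.10, S phase genes 0.01 and CDK inhibitors 0.25.

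Of 22 genes that regulate this program, 15 had a lower mean in Zbtb16lu/lu and the median was -0.09. Foxm1, the activator of G2 genes, had 1855 and 2093 normalized counts in WT against 1612 and 1911 in Zbtb16lu/lu (log2 fold change -0.17, SE 0.14), with overlap. Mybl2, which encodes B-Myb, had 2260 and 2760 against 2544 and 2695 (0.07, SE 0.14). Lin54, the MuvB subunit that contacts the CHR, had 2016 and 1967 against 1509 and 1563 (-0.37, SE 0.12, limma, adjusted p = 0.428), with no overlap. The other MuvB subunit genes did not share this value. Lin37 was higher in Zbtb16lu/lu, also with no overlap (0.38, and 0.19 with the offsets). Lin52 stood at -0.25, Rbbp4 at -0.08 and Lin9 at -0.06. The NF-Y subunit genes had values of -0.09 (Nfya), -0.18 (Nfyb) and -0.10 (Nfyc). With the offsets Mybl2 turned to -0.12, and Foxm1 stood at -0.31, Nfya at -0.15 and Nfyb at -0.08. As libraries were left out Foxm1 ran from -0.29 to -0.04, Mybl2 from -0.08 (without WT library 1) to 0.21 and Nfya from -0.14 to -0.04. Of 12 tested CDK inhibitor and arrest genes 11 had a higher mean, with a median of 0.25 (10 higher and 0.18 with the offsets), and 0 passed the limma or edgeR test. Without WT library 1 or 2 there were 9 and 8 higher, with medians of 0.35 and 0.39, and without Zbtb16lu/lu library 2 there were 9 higher. Ccng2, an atypical cyclin linked to cell cycle arrest, had 866 and 712 in WT against 1333 and 1281 in Zbtb16lu/lu (0.73, SE 0.15, limma adjusted p = 0.299, DESeq2 adjusted p = 0.00762). Cdkn1c, the inhibitor p57, was low throughout, with 29.9 and 12.9 in WT against 60.2 and 44.2 in Zbtb16lu/lu.

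Markers of other cells moved in part with the genotype. All 10 mature neutrophil markers tested had a higher mean in Zbtb16lu/lu (9 with the length and GC offsets). For 7 of them both Zbtb16lu/lu libraries lay above both WT libraries, an order found for 4462 of the 20531 genes tested. The genotypes overlapped for Lcn2 (0.09), S100a8 (0.29) and S100a9 (0.88). The 10 markers had a median of 1.89, and without WT library 1 or Zbtb16lu/lu library 1 there were 8 higher with medians of 1.17 and 1.30. Their sum was 6273 and 14190 normalized counts for WT against 21337 and 10560 for Zbtb16lu/lu, so the sums overlapped, and Mmp9 was at 0 in WT library 1. Ltf, which encodes a protein of neutrophil granules, had 11.6 and 56.7 against 846 and 305 (DESeq2 adjusted p = 0.0466, limma adjusted p = 0.299). Of 13 GMP markers 11 had a higher mean with a median of 0.14 (8 higher and 0.04 with the offsets), and the WT sums of 791068 and 800685 lay below the Zbtb16lu/lu sums of 913663 and 898251. The 9 erythroid markers summed to 1867 and 515 for WT and to 1561 and 640 for Zbtb16lu/lu, and the 4 megakaryocyte markers to 4262 and 1988 against 2725 and 1545. WT library 1 was thus highest for both of these lists. Of the lymphoid markers 1 of 5 B cell genes, Cd79b, and 2 of 4 T and NK cell genes, Cd3d and Nkg7, passed the filter. The part of these markers in the values of the mitosis genes was not tested.

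In 416b cells the comparison asked how the same genes stood after PLZF overexpression. With 1 library per condition there was no test, and each ratio has a 95% binomial interval that covers counting error only. The members were spread around 0 in PLZF-Flag, with 14 lower and 22 higher than in Empty vector and a median log2 ratio of 0.03, against -0.0001 for all 11836 genes whose mean normalized count was 10 or more. The interval lay above 0 for 11 members and above 0 for 16.1% of all genes. It lay below 0 for 3 members and below 0 for 15.9% of all genes, and it included 0 for 22. Together the members held 0.685% of the normalized counts in Empty vector and 0.697% in PLZF-Flag.

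The largest ratio was that of Cenpe, with 2213 normalized counts for the Empty vector and 2718 for PLZF-Flag (log2 ratio 0.30, 95% interval 0.21 to 0.38). Mki67 followed with 8457 and 10230 (0.27, 0.23 to 0.32). Kif20b had 3305 and 3665 (0.15, 0.08 to 0.22). Tpx2 had 9062 and 10005 (0.14, 0.10 to 0.19). The other 7 members whose interval lay above 0 had ratios from 0.05 to 0.09 and included all 3 chromosomal passenger members, Cdca8, Birc5 and Aurkb. Ccnb1 was the lowest member, with 3678 and 3259 normalized counts (-0.17, -0.25 to -0.10), and Cdca3 followed with 3888 and 3587 (-0.12, -0.19 to -0.05). Top2a had the narrowest interval, at 28449 and 27863 (-0.03, -0.06 to -0.0046). Hmmr and Bub1, both among the 3 members with the largest difference in GMPs, had 416b intervals that included 0 (-0.07 to 0.08 and -0.04 to 0.12). Of the members, all lower in Zbtb16lu/lu GMPs, 14 were also lower in PLZF-Flag 416b cells and 22 were higher, and across the 36 genes the values of the GMP and 416b comparisons had a Pearson r of -0.13 (Spearman rho -0.02). Cenpe, Kif20b and Tpx2 stood at -0.41, -0.41 and -0.32 in GMPs (-0.18, -0.25 and -0.27 without WT library 1) and were, beside Mki67, the highest in 416b cells, whereas Ccnb1 was lower in both.

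**Figure D4:**
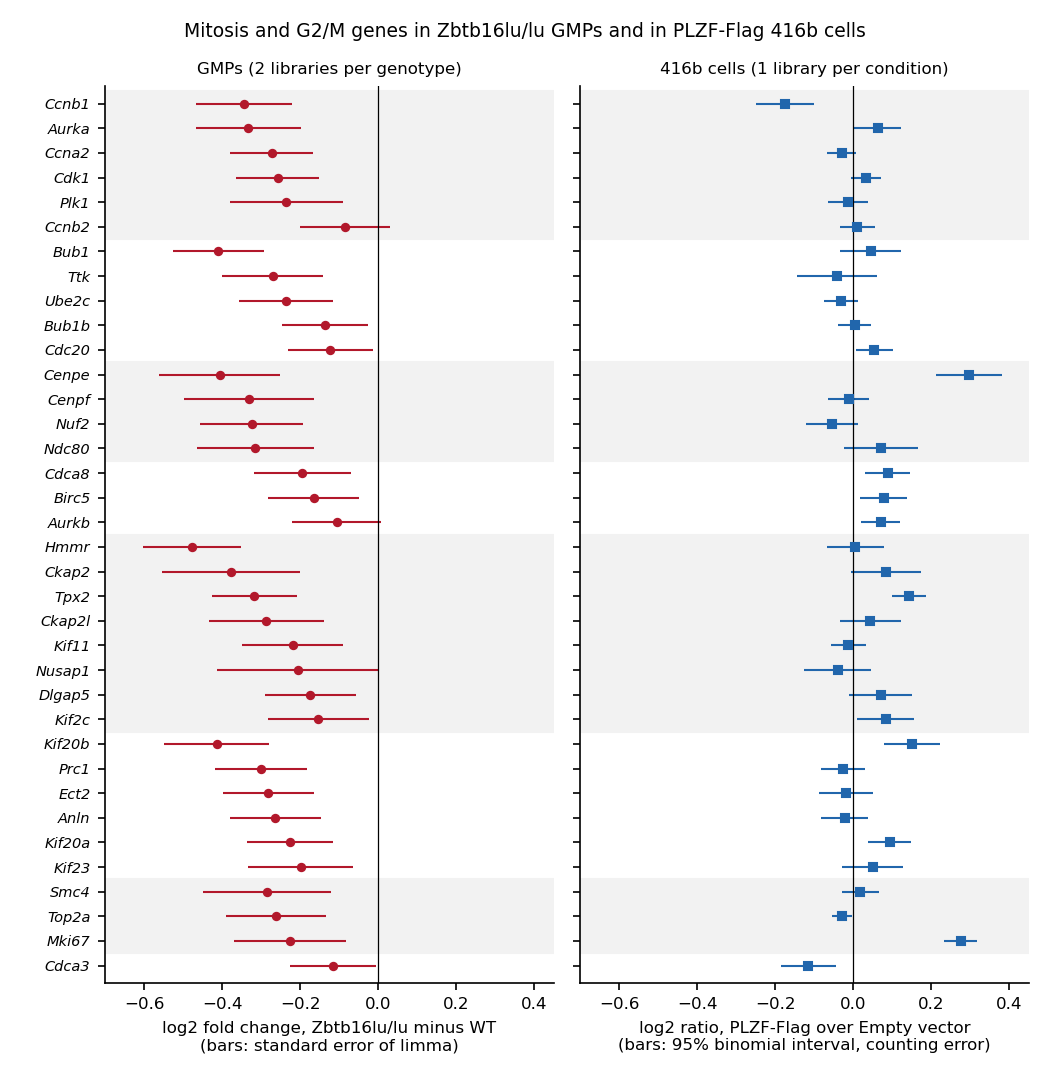
The 36 members grouped by role as in the plot of single libraries. The left panel gives the log2 fold change in GMPs with its standard error from limma, and the right panel the log2 ratio in 416b cells with its 95% binomial interval, on axes of the same range. All points on the left are below 0, from -0.48 to -0.08, and those on the right run from -0.17 (Ccnb1) to 0.30 (Cenpe).

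The order of the members by level also differed between the cell types. Levels were divided by exon length to compare genes. In WT GMPs the highest were Top2a with 5794 normalized counts per kb, Mki67 with 4308 and Smc4 with 3466, ahead of Cdc20 with 2807 and Ccnb2 with 2777, and the lowest was Ndc80 with 297. In Empty vector 416b cells Ccnb2 was highest with 5917 per kb, followed by Cdc20 with 4132 and Ube2c with 3834, and Cenpe was lowest with 257. Mki67 was at rank 2 of 36 in WT GMPs and at rank 20 in Empty vector cells, and Ube2c at rank 21 and rank 3. Top2a and Mki67 made up 33.1% to 34.9% of the summed normalized counts of the members in the GMP libraries and 16.3% to 16.5% in the 416b libraries. Over the 36 genes the levels per kb had a Spearman rho of 0.76 between WT GMPs and Empty vector cells. The GMP libraries were made from ribosomal RNA-depleted total RNA and the 416b libraries with an oligo-dT based SMART-Seq kit, and the tables were scaled separately, so cell type and library type cannot be told apart here.

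**Figure D5:**
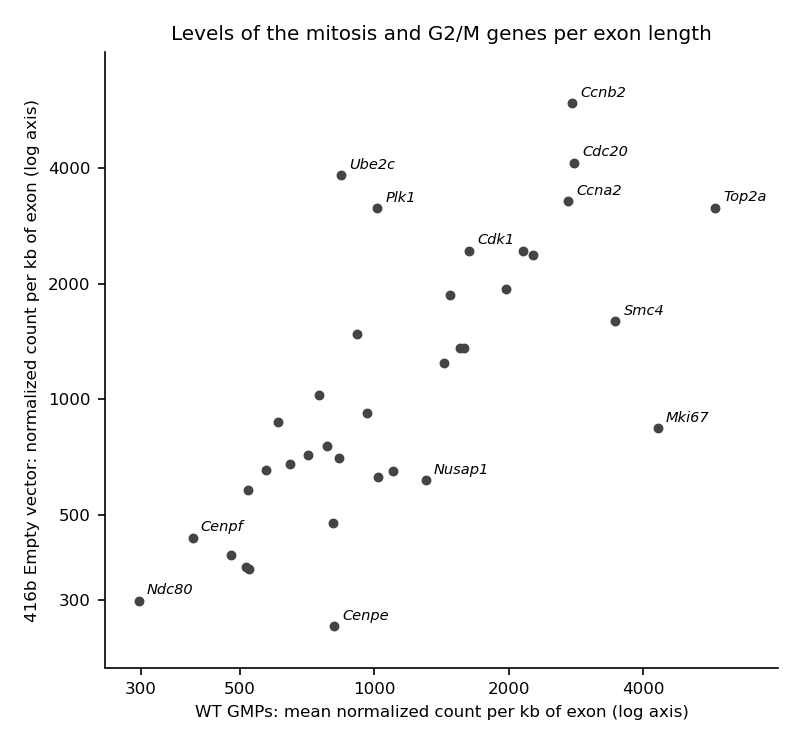
Level of each of the 36 members per kb of exon, as the mean normalized count of the WT GMP libraries (horizontal, log axis) and the normalized count of the Empty vector 416b library (vertical, log axis), 1 point per gene with the named genes labelled. Mki67 (4308 and 841) lies to the lower right and Ube2c (842 and 3834) and Plk1 (1014 and 3144) to the upper left of the other genes. Top2a (5794 and 3156) lies farthest to the right, and Cenpe (812 and 257) is the lowest point.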

How the data were processed

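Per the labels and methods, the authors aligned reads with Subread to mm10, counted them per gene with featureCounts and scaled each library by its DESeq2 size factor, and the deposited signal values are these normalized counts. The deposited tables also hold the authors' means, log2 values and fold changes with raw and adjusted p-values, none of which was used. All GMP values (100%) and 84.8% and 85.5% of the Empty vector and PLZF-Flag values were whole multiples (tolerance 0.01) of the value of 1 read. The methods state 3 independent RNA extractions for GMPs, without saying how they divide between the genotypes, and the table holds 2 libraries per genotype, so p-values measure only the spread between these libraries. GMP genes with at least 10 normalized counts in at least 2 libraries were tested with limma-trend (limma 3.58.1, R 4.3.3) on log2(value + 1), with Benjamini-Hochberg adjustment over all genes and a threshold of 0.08. Count tests on the recovered reads used edgeR 4.0.16 and DESeq2 1.42.0. Fold changes are on the log2(value + 1) scale. In 416b cells, Clopper-Pearson intervals came from the recovered reads of genes with a mean of at least 10. Reads are not independent molecules, so the intervals cover counting error only. Exon lengths and GC content came from GENCODE M21, gene positions and promoters from RefSeq. The members and lists were chosen with earlier results of these data known. Of each list outside the members, the 3 largest rises and falls in GMPs, called genes and the 2 extremes in 416b cells could be named. Markers could be named too. Foxm1, Mybl2, Lin9, Rbbp4, Nfya, Nfyb and Nfyc were named beside this for their role. The limma, edgeR and binomial steps were tested on simulated data. Python 3.11.15 was used, with numpy 2.4.6, scipy 1.17.1, pandas 2.3.3 and matplotlib 3.10.9.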

Additional observations from a re-analysis of the deposited data

How the results depend on the processing

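All 36 members were lower in Zbtb16lu/lu GMPs with a pseudocount of 0.1 or 10, without the filter, with a mean of 100 or more, with totals made equal, with quantile normalization, without the intensity trend, with edgeR or DESeq2 and the added length and GC offsets, with medians of -0.27 to -0.20. Non-overlapping members numbered 23 with quantile normalization and 33 with the offsets. The share of all genes in this order was not determined under these settings, so neither count has a background to be read against. DESeq2 called 217 genes (159 higher, 58 lower) and 1 member, Hmmr, and gave no adjusted p for 5971 genes. Every other alternative with all libraries called 0 genes, also at a threshold of 0.05, and without the intensity trend 2 members had an unadjusted p under 0.05. Leaving out 1 library gave 35 to 36 lower members, medians of -0.36 to -0.19, 1 to 4645 called genes and 0 to 23 called members. Without WT replicate 1 there were 2760 called genes and 4 members (Hmmr, Bub1, Aurka and Plk1), and without WT replicate 2 4645 genes and 23 members. Without Zbtb16lu/lu replicate 1 there was 1 gene, without Zbtb16lu/lu replicate 2 48, and 0 members in either. These fits hold 3 libraries, so the spread rests on the pair left in the other genotype and the lone library is assumed to vary alike. Nusap1 was reversed to 0.16 without WT replicate 1 and stood at -0.57 without WT replicate 2. In 416b cells, TMM scaling and equal totals gave 10 members above 0 in place of 11, and medians were 0.02 to 0.03. No paired analysis was possible because only 1 WT and 1 Zbtb16lu/lu library share a number in their names, and a block on these numbers would leave no residual degrees of freedom. Depth was not low for the members, whose lowest value in any GMP library was 1392 normalized counts (Ndc80).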
